A study of Mus musculus with 84 samples.

Results

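The step from HPC to pGM in the bone marrow of control mice was followed in 16 of the 84 RNA sequencing libraries of the series, 8 of each population. HPC are labelled as committed hematopoietic progenitor cells and pGM as pre-granulocyte-monocyte progenitors, which come ahead of GMP, the granulocyte-monocyte progenitors. All 16 libraries came from mice at 10 weeks of age with a genotype labelled wild type, no doxycycline and the note fetal induction. Every library with these labels was used. Each of 8 identifiers (76, 80, 87, 88, 4892, 4894, 5898 and 5899) occurred once in HPC and once in pGM, so the libraries formed 8 pairs, 4 with a 2-digit and 4 with a 4-digit identifier. The series asks how the start of leukemia by the fusion gene MLL-ENL changes with age, and these libraries are controls. Each held 0 to 5 counts on the MLL-ENL fusion row, 1 of the 3 transgene rows of the table, and the other rows were not examined. The sources used here give neither the sorting gates nor whether an identifier names 1 mouse, so p-values measure the spread between these samples. Of 41388 mouse genes in the table, 12555 had enough counts to be tested.

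Multipotent progenitors hold low levels of transcripts from several blood lineages and lose the alternatives as they commit. Entry into the granulocyte and monocyte branch is known for the factors C/EBPα, PU.1 and IRF8, for the colony-stimulating factor receptors, and for the proteases and peroxidase that are packed into primary granules. Genes of stem cells, among them HLF and MECOM, and an interferon-response program that stem and early progenitor cells keep on without infection are known to decline along that path.

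Levels are counts per 1 M, scaled by TMM (CPM), given as the lowest, median and highest of 8 libraries. Changes are log2 fold changes of pGM over HPC from edgeR's quasi-likelihood test on the 8 pairs, given with a standard error. That error was derived as the size of the change over the square root of the test's F statistic. It is approximate where counts are low or the change is near 0. A gene was called at a Benjamini-Hochberg adjusted p under 0.05. Of the genes tested, 1988 rose (15.8%) and 2017 fell (16.1%), 31.9% in all, with a median of 0.03 over all genes tested. A change of at least 2-fold was called for 1057 genes (8.42%), 386 that rose (3.07%) and 671 that fell (5.34%). The 8 pGM libraries lay wholly above the 8 HPC libraries for 289 genes (2.3%) and wholly below for 472 (3.76%), 6.06% in all, and 2545 genes (20.3%) had the same direction in 8 of 8 pairs. In bulk samples, fewer cells of a type and less RNA per cell cannot be told apart.

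Depth was 10.26 to 20.79 M counts a library (median 16.09 M), and the first principal component, with 34.8% of the variance, separated the populations. Some libraries stood apart in genes of other cell types, as the plot of summed marker levels shows. Late neutrophil genes, 16 in the list, summed to 2678 and 1663 CPM in HPC 4892 and 4894 and to 2009 and 1856 CPM in their pGM, against 78.8 to 270 CPM in the other 12 libraries. Without these 2 pairs, a choice made after seeing the data, 2633 genes were called in place of 4005, and 2565 of them were among the 4005. The count of 2-fold calls was 1007 in place of 1057. Immunoglobulin and plasma cell genes, 13 summed, reached 40780 CPM in HPC 88 and 9565 CPM in HPC 80, against 1161 to 4423 CPM in the other 6 HPC libraries and 627 to 1212 CPM in pGM. HPC 80 and 88 were also the highest HPC libraries for the summed mast cell, basophil and eosinophil genes, at 1555 and 988 CPM.

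**Figure D1:**
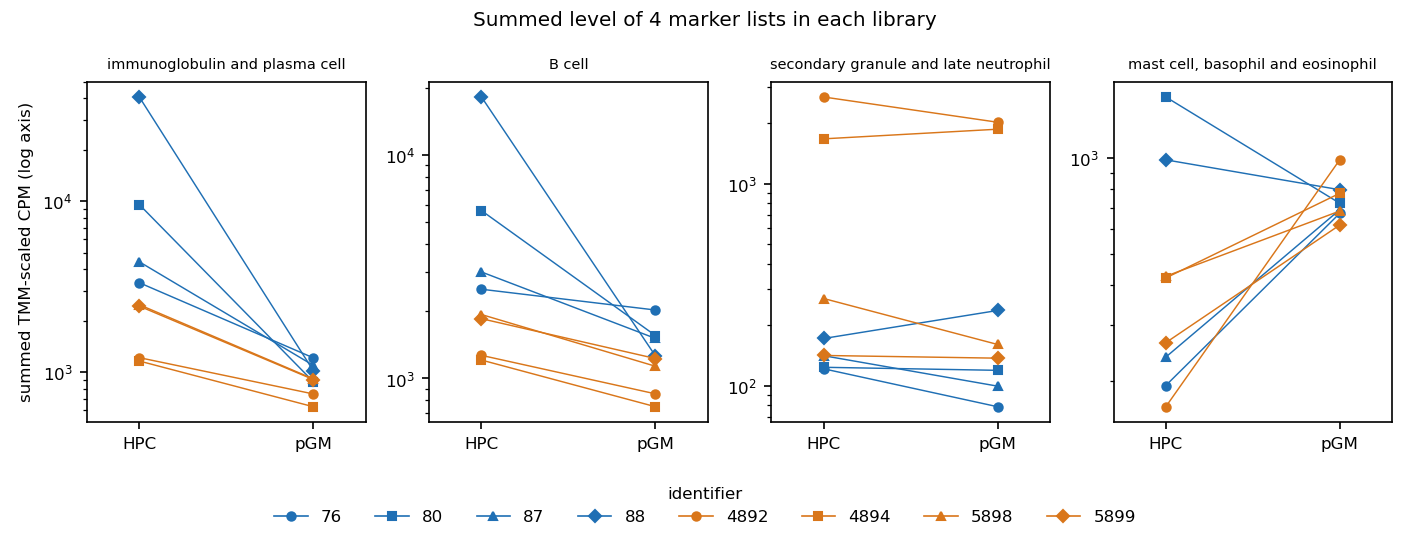
Summed TMM-scaled CPM (log axis) of the members of 4 marker lists in the 8 HPC and 8 pGM libraries, joined by identifier (blue, 2 digits; orange, 4 digits). Late neutrophil genes are high in both libraries of 4892 and 4894, and immunoglobulin genes are highest in HPC 88 at 40780 CPM.

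Stem and multipotent progenitor genes fell in pGM. Of 30 tested, 25 fell and 1, the receptor Tek (0.63 ± 0.14), rose, with a median of -0.82 and 13 falls of at least 2-fold. Hlf, a transcription factor of stem cells, ran from 195 to 311 CPM in HPC (median 266) and from 57.4 to 96.5 CPM in pGM (median 73.8). All 8 HPC libraries lay above all 8 of pGM, and the change was -1.79 ± 0.09, adjusted p = 2.2e-09. Mecom, a zinc finger factor that maintains stem cells and is also known as Evi1, ran from 31.2 to 61.9 CPM in HPC (median 41.4) and from 8.45 to 15.8 CPM in pGM (median 11.9). Its change was -1.75 ± 0.13, adjusted p = 5.4e-08, again with no overlap. Procr, the endothelial protein C receptor used to mark stem cells (-1.79 ± 0.12), and Vldlr, a lipoprotein receptor (-1.71 ± 0.11), fell without overlap as well. In Vldlr, pGM 4894 was the highest pGM library at 33.1 CPM and the other 7 reached 21.1 CPM.

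Among genes for surface antigens that are used to sort progenitors, 5 of 13 rose, 2 fell and 6 were not called. Of all genes tested, 31.9% were called. Since the gates are not given, a gene in this group may have been used to separate the populations, and its change is then no result. Ly6a, which encodes Sca-1 (chr15:74994877-74998031 on GRCm38), ran from 190 to 323 CPM in HPC (median 272) and from 18.7 to 31.3 CPM in pGM (median 27.6). All 8 HPC libraries lay far above all 8 of pGM, and the change was -3.4 ± 0.13, adjusted p = 6.6e-11. Kit (-0.15 ± 0.14, adjusted p = 0.42) and Cd34 (-0.18 ± 0.09, adjusted p = 0.14), both broad progenitor antigens, were not called. Fcgr3 (2.21 ± 0.22) and Fcgr2b (1.25 ± 0.12), the Fc receptors that mark GMP, rose. Fcgr3 ran from 23 to 52.9 CPM (median 30.7) in pGM, and in GMP of the same identifiers it ran from 341 to 1141 CPM (median 471), so the 8 pGM libraries lay below the 8 of GMP. Itga2b, the integrin CD41 of early and megakaryocytic progenitors, rose from a median of 15.4 to 63.3 CPM (2.12 ± 0.14). Cd48 rose (0.78 ± 0.10), and Cd9 rose by little (0.26 ± 0.09, adjusted p = 0.038) and was not called without any 1 of 5 identifiers (76, 87, 4892, 4894 or 5899). Flt3, a cytokine receptor of multipotent and lymphoid progenitors, fell (-1.13 ± 0.20, adjusted p = 4.6e-04), from 155 to 700 CPM in HPC and 88.5 to 442 CPM in pGM. The groups overlapped, since HPC 80, 88 and 5898 were low at 155, 181 and 189 CPM and pGM 87 was high at 442 CPM. In each pair pGM held less than HPC, and in a fit of the 2-digit pairs alone Flt3 was not called (-0.53, adjusted p = 0.0554). In a model of all 16 libraries with a step for each identifier set, it was called within those pairs (adjusted p = 0.0479).

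**Figure D2:**
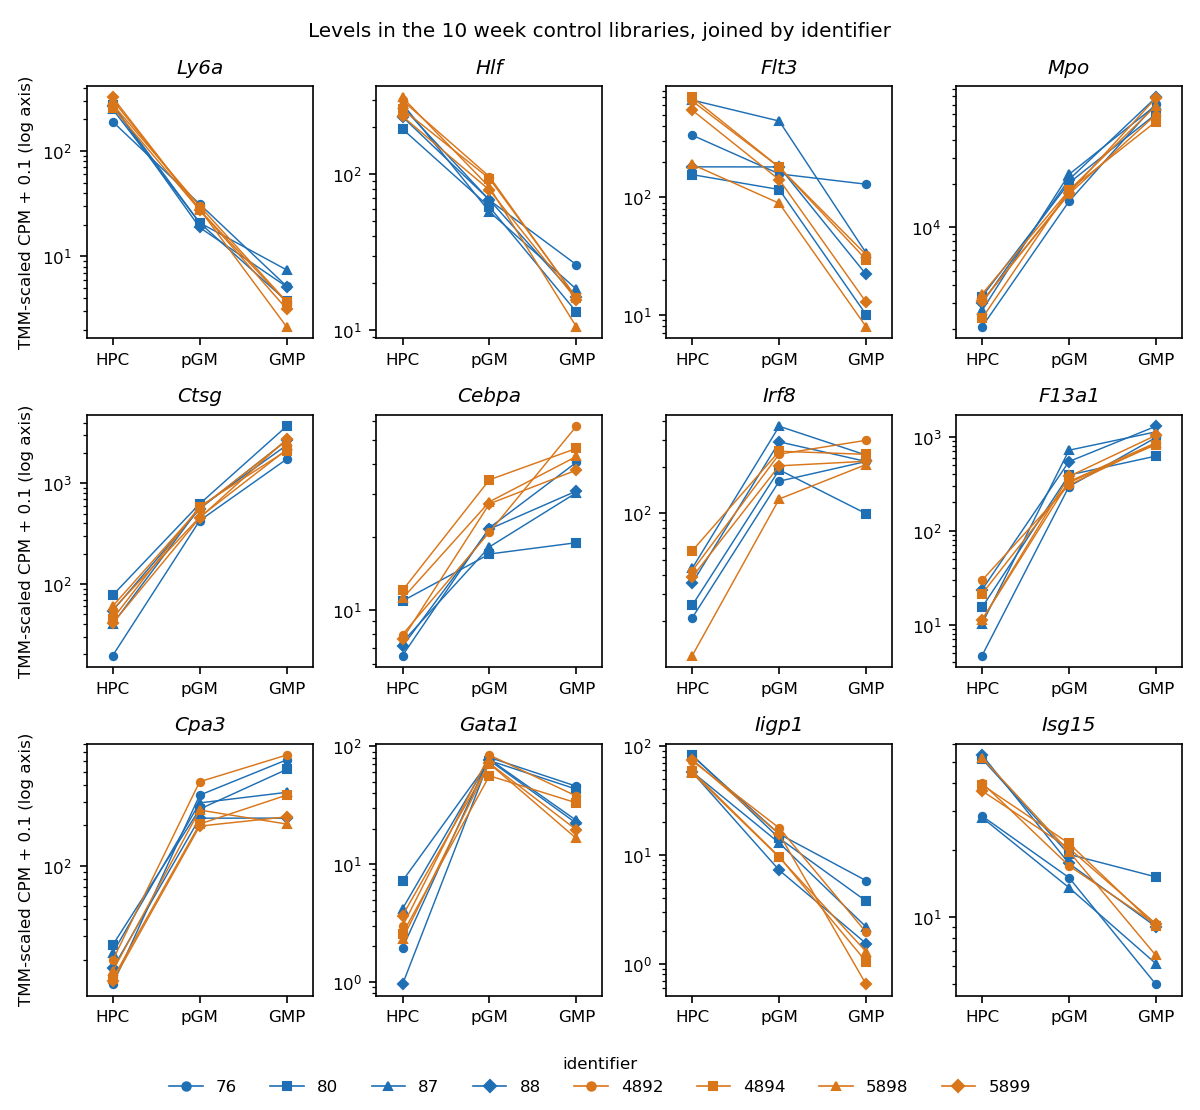
Level of 12 genes in the 10 week control HPC, pGM and GMP libraries, joined by identifier (TMM-scaled CPM plus 0.1, log axis; blue, 2-digit identifiers; orange, 4-digit). From HPC to pGM, Ly6a, Hlf, Iigp1 and Isg15 fall and Mpo, Ctsg, Cebpa, Irf8, F13a1, Cpa3 and Gata1 rise in 8 of 8 pairs, while Flt3 overlaps between the groups.

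Primary granule genes rose in pGM. Of 16 tested, 12 rose and none fell, 11 of the 12 by at least 2-fold, and the median was 1.42. Mpo, the myeloperoxidase of these granules (chr11:87793581-87804413), ran from 2064 to 3467 CPM in HPC (median 3044) and from 15080 to 23150 CPM in pGM (median 17980). The groups were far apart and the change was 2.71 ± 0.11, adjusted p = 2.3e-10, and GMP of the same identifiers were higher again, from 53500 to 78470 CPM (median 69110). Ctsg, the protease cathepsin G, ran from 19.3 to 77.3 CPM in HPC (median 49.5) and from 427 to 626 CPM in pGM (median 562), a change of 3.52 ± 0.15, adjusted p = 2.3e-10. Elane, neutrophil elastase, named after its values were seen, ran from 51.1 to 578 CPM in HPC (median 374) and from 667 to 2932 CPM in pGM (median 1761). Its change was 2.45 ± 0.22, adjusted p = 5.9e-07, and HPC 76 and pGM 76 were the lowest of their groups at 51.1 and 667 CPM. Prtn3, proteinase 3 (1.48 ± 0.09), Cst7, the protease inhibitor cystatin F (1.56 ± 0.09), and Igsf6, a myeloid immunoglobulin-family receptor (3.56 ± 0.22), also rose with no overlap. The 4 members that were not called were Lyz2, Prss57, Ctsc and Gstm1, at -0.24 to 0.27. All 15 granule genes with a promoter window were searched for the PU.1 core letters GAGGAA, and 10 held a match (66.7%), against 26.8% of 9499 tested genes with a window.

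Elane and Prtn3 lie close together on chromosome 10 and rose together, and their upstream sequence shows the GAGGAA letters at a like distance from the start, 85 and 95 bases before it. The sequences are the 250 bases before the RefSeq start (GRCm38.p6, plus strand, 5′ to 3′), with matches in capitals.
Elane upstream (chr10:79886062-79886311): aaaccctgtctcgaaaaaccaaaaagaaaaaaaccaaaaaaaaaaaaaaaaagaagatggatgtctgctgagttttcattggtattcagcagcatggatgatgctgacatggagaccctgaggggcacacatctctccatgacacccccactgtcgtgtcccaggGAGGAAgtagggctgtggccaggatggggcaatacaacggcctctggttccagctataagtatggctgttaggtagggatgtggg
Prtn3 upstream (chr10:79879417-79879666): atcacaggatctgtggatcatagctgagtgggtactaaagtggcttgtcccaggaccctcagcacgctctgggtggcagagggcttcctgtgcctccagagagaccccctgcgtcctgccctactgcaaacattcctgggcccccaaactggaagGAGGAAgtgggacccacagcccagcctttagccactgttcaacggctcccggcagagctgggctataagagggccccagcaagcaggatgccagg
For every motif here both strands were searched from 250 bases before to 50 after the start, and matches of 1 motif may overlap each other or another motif. A match is a description of letters and not of binding.

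Myeloid factors and receptors rose in part. Of 20 tested, 11 rose and 1, the inhibitory lectin Cd33, fell, and the median was 0.83. Cebpa, which encodes the granulocyte-monocyte factor C/EBPα, ran from 6.4 to 11.9 CPM in HPC (median 7.67) and from 16.9 to 34.2 CPM in pGM (median 21.6) and rose by 1.43 ± 0.13, adjusted p = 5.9e-07. Irf8, the factor that favours monocytes and dendritic cells, ran from 11.8 to 57.1 CPM in HPC (median 36.9) and from 124 to 369 CPM in pGM (median 223). All pGM libraries lay above all HPC libraries, and the change was 2.8 ± 0.13, adjusted p = 4.6e-10. Csf1r, the receptor for M-CSF, rose from a median of 23.8 to 109 CPM (2.45 ± 0.15), and Il1rl1, the receptor for interleukin 33, from 0.637 to 6.94 CPM (3.51 ± 0.30). Tyrobp, a signalling adaptor of myeloid receptors, rose by 1.53 ± 0.13. Spi1, which encodes PU.1 (0.24 ± 0.12, adjusted p = 0.14), Csf3r, the G-CSF receptor (-0.11 ± 0.08, adjusted p = 0.34), Csf2ra (0.23 ± 0.15, adjusted p = 0.29) and Gfi1 (-0.18 ± 0.14, adjusted p = 0.35) were not called. They are named after their values were seen.

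Later granulocyte genes moved both ways. Of 13 tested, 4 rose and 2 fell, against 31.9% called among all genes tested. Cxcr2, a chemokine receptor of neutrophils, rose, with 1.31 to 11.4 CPM in HPC and 24.4 to 45.3 CPM in pGM (2.78 ± 0.23, adjusted p = 1.9e-07). Cebpe, the factor of secondary granule genes, ran from 0.256 to 5.17 CPM in HPC (median 0.743) and from 1.79 to 11.4 CPM in pGM (median 6.28), against 42.7 to 159 CPM in GMP. It rose in 8 of 8 pairs (2.19 ± 0.35) with overlap between the groups. Padi4, an arginine deiminase, fell (-1.06 ± 0.10). Mmp8, a granule collagenase, was called at 1.84 ± 0.46, adjusted p = 0.0063. In a fit of the 4-digit pairs alone, which include 4892 and 4894, it was not (0.62 ± 0.40, adjusted p = 0.27). With no replicate block it was not called either (1.45, adjusted p = 0.147), nor with no block and no set term (0.68, adjusted p = 0.586). S100a8, at 478 and 265 CPM in HPC 4892 and 4894 and at most 34.6 CPM in the other HPC libraries, was not called (-0.19 ± 0.30).

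Monocyte and dendritic cell genes rose in 15 of 26 tested and fell in 4, with a median of 1.03. The median was 1.73 in the 2-digit and 0.33 in the 4-digit pairs, and no member was called in the test of the difference between these sets. F13a1, the transglutaminase subunit of monocytes and megakaryocytes, ran from 4.61 to 29.6 CPM in HPC (median 13.2) and from 295 to 718 CPM in pGM (median 356). Its change was 4.79 ± 0.27, adjusted p = 3.4e-09, and it was among the 15 largest rises. Ly86, a partner of the receptor RP105, ran from 2.35 to 14.5 CPM in HPC (median 6.9) and from 80.5 to 158 CPM in pGM (median 103) (3.98 ± 0.26). Cx3cr1 (2.78 ± 0.15) and Ccr2 (3.22 ± 0.20), chemokine receptors of monocytes, and Ms4a6c (2.26 ± 0.11) rose with no overlap. The dendritic cell markers Xcr1, Clec9a, Batf3 and Zbtb46 were too low to be tested. Siglech, which marks plasmacytoid dendritic cells, was tested and not called (1.03 ± 0.66, adjusted p = 0.25), with 13.1 CPM in pGM 76 and at most 6.47 CPM in the other pGM libraries. Ly6c1 (-1.86 ± 0.30) and Ctss (-0.58 ± 0.13) were among the members that fell.

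Mast cell, basophil and eosinophil genes split in 2 directions. Of 18 tested, 8 rose and 4 fell, against 15.8% and 16.1% of all genes tested. The median was -0.52, with -0.68 in the 2-digit and -0.07 in the 4-digit pairs. The risers included genes of early mast cells and basophils. Ms4a2, the beta chain of the high-affinity IgE receptor, ran from 0.264 to 4.63 CPM in HPC (median 1.95) and from 36.1 to 66.1 CPM in pGM (median 50.5) and rose by 4.85 ± 0.27, adjusted p = 2.9e-09. Cpa3, mast cell carboxypeptidase A, ran from 13 to 25.6 CPM in HPC (median 16.7) and from 197 to 421 CPM in pGM (median 261). The groups were far apart, and the change was 3.94 ± 0.14, adjusted p = 5.4e-11. Hdc, which makes histamine, rose by 3.37 ± 0.18, and Csrp3, a LIM protein, rose, with 0 to 0.691 CPM in HPC and 10.7 to 17.8 CPM in pGM (5.27 ± 0.27). The 4 members that fell were Cma1, Prss34, Ear1 and Prg2, which encode granule proteins and are named after their values were seen. Prss34, a basophil protease, was at 403 and 287 CPM in HPC 80 and 88, at 5.38 to 56.3 CPM in the other HPC libraries and at 1.03 to 110 CPM in pGM (-2.5 ± 0.37, adjusted p = 9.1e-05). Prg2, the major basic protein of eosinophils, likewise peaked in HPC 80 and 88 at 782 and 432 CPM (-1.82 ± 0.50, adjusted p = 0.012). Within the 4-digit pairs Prg2 was not called (-0.72). The part of basophils and eosinophils in HPC 80 and 88 in these falls was not tested.

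The letters AGATAA, the core bound by GATA factors, were found in the windows of 31.2% of 16 genes of this group and 29.4% of 17 erythroid genes, against 6.3% of all windows. Cpa3 and Ms4a2, whose rises were among the largest, are shown as the 250 bases before the start, on the minus strand of GRCm38.p6 and written 5′ to 3′, with AGATAA or its complement TTATCT in capitals.
Cpa3 upstream (chr3:20242182-20242431): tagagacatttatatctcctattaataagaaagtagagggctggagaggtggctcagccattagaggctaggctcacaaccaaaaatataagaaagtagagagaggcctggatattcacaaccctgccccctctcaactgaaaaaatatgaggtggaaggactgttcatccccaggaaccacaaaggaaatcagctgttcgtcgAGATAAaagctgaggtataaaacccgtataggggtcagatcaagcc
Ms4a2 upstream (chr19:11623720-11623969): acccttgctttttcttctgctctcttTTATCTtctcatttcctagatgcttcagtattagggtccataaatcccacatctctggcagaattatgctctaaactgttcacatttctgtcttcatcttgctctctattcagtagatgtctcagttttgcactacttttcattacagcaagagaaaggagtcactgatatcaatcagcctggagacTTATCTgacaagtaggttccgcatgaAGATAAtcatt
Cpa3 held 1 match, 46 bases before the start, and Ms4a2 held 3, from 224 to 11 bases before it.

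Erythroid genes rose in 11 of 20 tested and fell in 3, with a median of 1.63. Gata1, the factor of erythroid, megakaryocytic, mast cell and eosinophil fates, ran from 0.855 to 7.1 CPM in HPC (median 2.67) and from 56 to 83.9 CPM in pGM (median 75.5). The pGM libraries were tight except for pGM 4894 at 56 CPM, and the change was 4.68 ± 0.23, adjusted p = 1.2e-09. In GMP it was lower, from 16.4 to 45.6 CPM (median 28.1). Car1, carbonic anhydrase 1, an early erythroid enzyme, ran from 2.4 to 10.5 CPM in HPC (median 7.1) and from 38.1 to 309 CPM in pGM (median 154) and rose by 4.58 ± 0.27, adjusted p = 6.9e-09. Tspo2, a cholesterol-binding protein of erythroblasts (4.57 ± 0.32), and Aqp1, a water channel of red cells (4.33 ± 0.33), rose from near 0. Of the globins, Hba-a1 (0.15 ± 0.66), Hba-a2 (0.02 ± 0.72) and Hbb-bs (0.36 ± 0.59) were not called, and Hbb-bt fell (-1.75 ± 0.22). Car2, carbonic anhydrase 2, which is also expressed in multipotent progenitors, fell, with 2969 to 4894 CPM in HPC and 1024 to 2307 CPM in pGM (-1.39 ± 0.10, adjusted p = 8.2e-08). It held most of the summed erythroid level, which ran from 3145 to 5072 CPM in HPC and from 1328 to 3022 CPM in pGM.

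Megakaryocyte genes moved both ways, with 6 of 16 higher and 4 lower in pGM (median 0.09), against 15.8% and 16.1% of all genes tested. Itgb3 (1.61 ± 0.16) and Treml1 (2.12 ± 0.44), platelet receptors, and Gfi1b (1.08 ± 0.13), a repressor of erythroid and megakaryocytic cells, rose beside Itga2b. Mmrn1, multimerin of platelet granules (-1.94 ± 0.18), and Slc35d3, a platelet granule transporter (-1.46 ± 0.12), fell. Pf4 (-0.22 ± 0.17, adjusted p = 0.36) and Vwf (0.10 ± 0.24, adjusted p = 0.78) were not called.

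Several of the largest rises lay outside these groups. Slc45a3, a sugar transporter also known as prostein, gave the largest rise among the genes named by size. It ran from 0.155 to 0.823 CPM in HPC (median 0.284) and from 15.9 to 30.1 CPM in pGM (median 22.5), a change of 5.91 ± 0.19, adjusted p = 3.1e-11, and lies at chr1:131962967-131982969. Mfsd2b, the sphingosine-1-phosphate exporter of red cells and platelets, ran from 0.155 to 2.67 CPM in HPC (median 1.42) and from 31.9 to 64.9 CPM in pGM (median 49.1) (5.2 ± 0.27) and was at 2.05 to 14.7 CPM in GMP. Atp1b2, a sodium pump subunit (5.22 ± 0.27), and Gpr183, an oxysterol receptor (3.97 ± 0.26), rose in 8 of 8 pairs. Tcf7, the T cell factor TCF1, ran from 0.134 to 2.48 CPM in HPC (median 1.38) and from 8.24 to 28 CPM in pGM (median 18.3) and was low again in GMP at 0.754 to 3.62 CPM, and its change was 3.87 ± 0.34, adjusted p = 4.3e-07.

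The genes with the largest falls were of many kinds. Wfdc18, a small secreted protein, ran from 22.1 to 106 CPM in HPC (median 40.7) and from 0.973 to 7.46 CPM in pGM (median 4.47), a change of -3.69 ± 0.18, adjusted p = 1.1e-09. Ddx4, an RNA helicase best known from germ cells, ran from 46.3 to 140 CPM in HPC (median 73) and from 5.3 to 16.6 CPM in pGM (median 9.02) (-2.99 ± 0.14). Tnip3, an inhibitor of NF-kB signalling, fell (-2.89 ± 0.10, adjusted p = 5.6e-11), with HPC at 70.3 to 115 CPM and pGM at 7.99 to 14.2 CPM. Hcar2, a receptor for nicotinic acid (-3.5 ± 0.30), Sema3d, a guidance ligand (-2.98 ± 0.12), Abcg3, a transporter (-2.95 ± 0.16), and Serpinh1, a collagen chaperone (-2.62 ± 0.16), fell as well. Postn, the matrix protein periostin, ran from 3.03 to 5.74 CPM (median 4.53) in HPC and from 0 to 0.899 CPM in pGM (-4.03 ± 0.37). In the same list of stroma and endothelium, Col1a1, Col1a2, Col3a1, Cxcl12, Cdh5 and Kdr were too low to be tested.

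Lymphoid genes moved both ways. Of 31 lymphoid priming genes, 15 fell and 7 rose, with a median of -0.31, against 16.1% and 15.8% of all genes tested. The lowest value in the list, -6.2, was that of Jchain, which is also counted in the immunoglobulin list below. The list summed to 27570 CPM in HPC 88 and to 6332 to 10960 CPM in the other HPC libraries. Tcf7, given above, was among the 7 that rose. Those that fell included Ccr9 (-2.63 ± 0.15, adjusted p = 3.5e-09) and Ccr7 (-1.82 ± 0.17, adjusted p = 6.3e-07), homing receptors of thymus-seeding and lymph node cells, and Wfdc17 (-1.95 ± 0.10, adjusted p = 2.1e-09). Ccr9 ran from 11.4 to 58.9 CPM in HPC (median 39.5) and from 1.59 to 14 CPM in pGM (median 5.44). Dntt, the terminal transferase of early lymphoid cells, named after its values were seen, ran from 1303 to 1966 CPM in HPC (median 1563) and from 491 to 1097 CPM in pGM (median 678) and fell in 8 of 8 pairs (-1.24 ± 0.12). In a separate list of T and NK cell genes, 5 of 11 tested fell and 3 rose, with a median of -0.28. The shares over all genes tested were 16.1% and 15.8%. In this T and NK list Lck, a kinase of T cells, fell, with 161 to 245 CPM in HPC and 47.6 to 87.9 CPM in pGM (-1.55 ± 0.10). The T cell receptor complex genes Cd3d, Cd3e and Cd3g were too low to be tested. Gzmb, granzyme B, rose, with 0 to 0.887 CPM in HPC and 1.41 to 10.7 CPM in pGM (3.91 ± 0.39).

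B cell genes rose in 6 of 11 tested, and their level in pGM differed widely between identifiers. Ighm was the 1 member that fell. Igll1, part of the pre-B cell receptor, ran from 1.79 to 17 CPM in HPC (median 9.03) and from 4.73 to 222 CPM in pGM (median 70.2) (2.83 ± 0.46, adjusted p = 2.2e-04). In pGM it was high in 76 and 80, at 222 and 183 CPM, and low in 4892 and 4894, at 4.73 and 9.1 CPM, where it did not exceed the highest HPC library. Ebf1, a factor of B cell identity (2.72 ± 0.44, adjusted p = 2.0e-04), and Vpreb3 (2.78 ± 0.44, adjusted p = 1.6e-04) were likewise highest in pGM 76 and 80 and lowest in pGM 4892 and 4894. In GMP Vpreb3 reached 1.64 CPM. Pax5, Ms4a1 and Cd22, genes of later B cells, were too low to be tested. The part of B lineage cells in the pGM rise was not tested.

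Immunoglobulin and plasma cell genes, a list chosen after seeing the values, fell in 6 of 9 tested. Igkc, the kappa light chain, was at 17030 CPM in HPC 88, at 3252 CPM in HPC 80, at 471 to 1237 CPM in 76, 87, 5898 and 5899, and at 36.2 and 32.3 CPM in 4892 and 4894. In pGM it ran from 0.374 to 68.9 CPM (median 11.9), so that only HPC 4892 and 4894 lay within the pGM range, and the change was -6.35 ± 0.87, adjusted p = 4.4e-05. Jchain, which joins secreted antibodies, was also highest there, with 4262 CPM in HPC 88 and 5.06 to 709 CPM in the other HPC libraries (-6.2 ± 0.66, adjusted p = 3.2e-06). Ighm, the mu heavy chain, ran from 1034 to 17860 CPM in HPC (median 1970) and from 562 to 1106 CPM in pGM (median 777) (-1.58 ± 0.32, adjusted p = 0.0014), and Sdc1, the plasma cell antigen CD138, fell with no overlap (-1.86 ± 0.20, adjusted p = 3.1e-06). Mzb1, a chaperone of plasma cells and marginal zone B cells, was not called (-0.02 ± 0.50, adjusted p = 0.98). The part of plasma cells in these falls was not tested.

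Genes of the type I interferon response fell in 24 of 29 tested and rose in none, 13 of them by at least 2-fold, with a median of -0.81. Iigp1, an immunity-related GTPase, ran from 56.7 to 82.7 CPM in HPC (median 65.9) and from 7.14 to 17.6 CPM in pGM (median 13.5). The groups were far apart, and the change was -2.45 ± 0.11, adjusted p = 4.2e-10. Irf7, the factor that amplifies the response, ran from 88.3 to 142 CPM in HPC (median 104) and from 33.2 to 45.1 CPM in pGM (median 36.1) (-1.54 ± 0.09, adjusted p = 8.0e-09). Oasl2, a relative of the antiviral oligoadenylate synthetases, fell from a median of 185 to 78.4 CPM (-1.28 ± 0.07) and had a median of 21.1 CPM in GMP. Isg15, the ubiquitin-like modifier, named after its values were seen, ran from 28 to 53.6 CPM in HPC (median 39.7) and from 13.4 to 21.4 CPM in pGM (median 18.2) (-1.18 ± 0.11, adjusted p = 6.6e-07). The 5 members that were not called were Stat2, Mx1, Mx2, Ifitm2 and Bst2.

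A list of GTPases held guanylate-binding and immunity-related members, which act in host defence, and Gimap members, which act in lymphocyte survival. Of its 18 tested genes 15 fell and 1 rose, with a median of -1.25. Of the 10 guanylate-binding and immunity-related genes 8 fell, Gbp3 rose and Gbp7 was not called, with a median of -1.14, and Gbp2 and Iigp1 among them are also counted in the interferon list. Gbp2 ran from 88.9 to 132 CPM in HPC (median 111) and from 34.1 to 53.3 CPM in pGM (median 51) (-1.24 ± 0.08, adjusted p = 1.3e-08), while its neighbour Gbp3 ran from 44.4 to 88.3 CPM in HPC (median 63.1) and from 82.9 to 107 CPM in pGM (median 88.3) (0.57 ± 0.11, adjusted p = 0.0011) and was higher in pGM in 8 of 8 pairs. The 8 Gimap genes had a median of -1.45, and 7 of them fell, among them Gimap8 (-2.05 ± 0.15, adjusted p = 4.2e-08) and Gimap7 (-1.65 ± 0.12, adjusted p = 5.2e-08), both without overlap. Gimap9 was not called (-0.19 ± 0.12).

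The interferon-stimulated response element, written as GAAA, 2 bases of any kind (NN) and GAAA on either strand, was found in the windows of 65.0% of 20 interferon response genes and in 6 of 6 Gbp and Irg genes of the list, against 3.2% of all windows. None of 8 Gimap windows held it. Among genes that fell at least 2-fold the share was 7.7%, and among those that rose 4.3%. Isg15 and Gbp2, which fell, and Gbp3, which rose with the same letters, are shown as the 250 bases before the start (GRCm38.p6, Isg15 on the minus and both Gbp genes on the plus strand, 5′ to 3′), with matches or their complements in capitals.
Isg15 upstream (chr4:156200819-156201068): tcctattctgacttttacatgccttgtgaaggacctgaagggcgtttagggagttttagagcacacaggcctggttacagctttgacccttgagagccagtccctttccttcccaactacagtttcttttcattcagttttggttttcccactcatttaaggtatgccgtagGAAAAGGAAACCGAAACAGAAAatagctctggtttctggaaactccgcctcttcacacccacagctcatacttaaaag
Gbp2 upstream (chr3:142620413-142620662): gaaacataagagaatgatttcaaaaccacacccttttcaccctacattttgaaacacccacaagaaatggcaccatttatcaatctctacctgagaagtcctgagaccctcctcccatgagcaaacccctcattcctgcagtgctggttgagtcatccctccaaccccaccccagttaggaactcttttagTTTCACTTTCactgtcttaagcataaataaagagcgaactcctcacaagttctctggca
Gbp3 upstream (chr3:142559794-142560043): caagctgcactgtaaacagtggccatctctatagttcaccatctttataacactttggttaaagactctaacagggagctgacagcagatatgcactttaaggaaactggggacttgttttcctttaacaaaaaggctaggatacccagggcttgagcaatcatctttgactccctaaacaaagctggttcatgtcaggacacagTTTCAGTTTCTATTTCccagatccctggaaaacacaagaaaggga
Isg15 held 3 overlapping matches, from 78 bases before the start, Gbp2 held 1 at 59 bases and Gbp3 held 2 overlapping matches from 45 bases. These 3 promoters were chosen after the values were seen, and the part of the element in the changes was not tested.

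**Figure D3:**
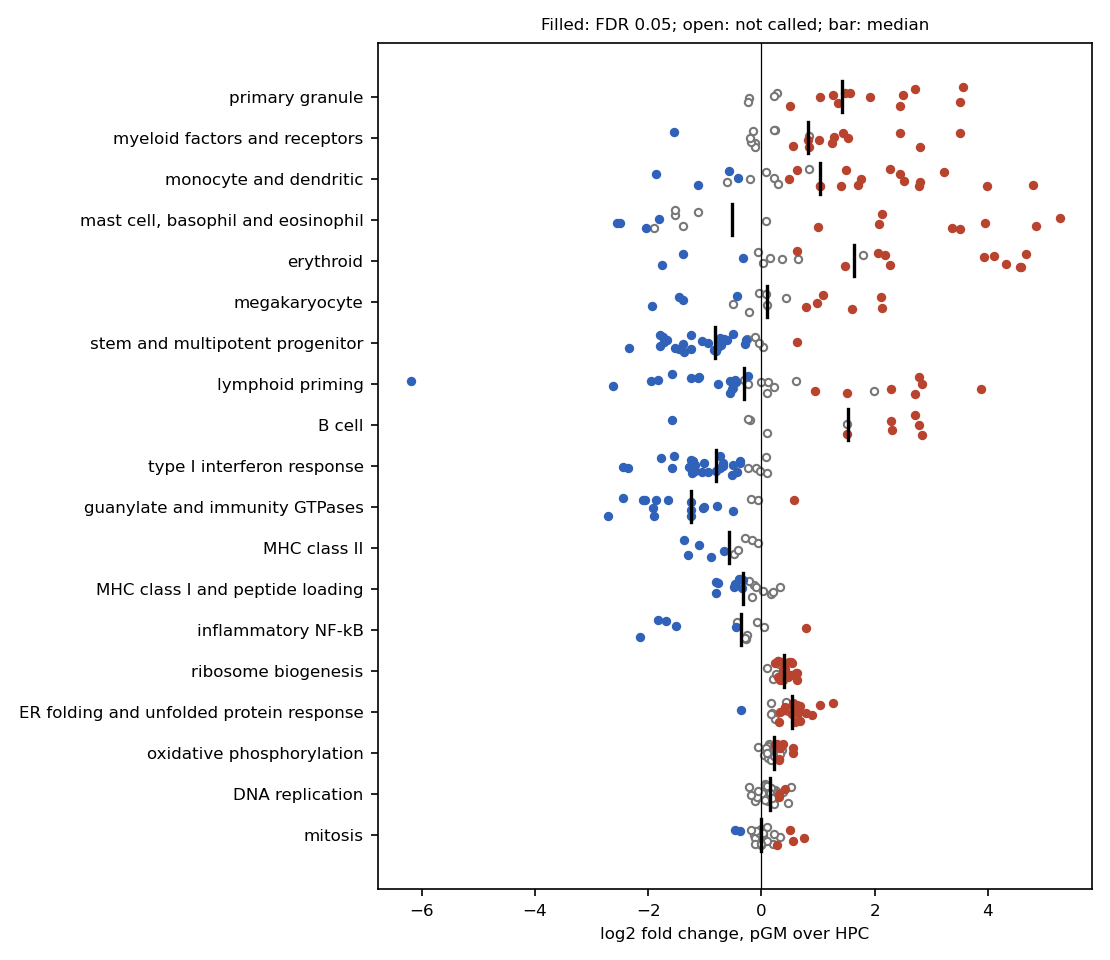
Log2 fold change of pGM over HPC (x axis) of each tested member of 19 gene lists; red and blue points passed an adjusted p of 0.05, open points did not, and the bar is the median. Primary granule genes lie mostly above 1 and interferon response genes and GTPases mostly below 0, while mitosis and DNA replication genes lie near 0.

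Antigen presentation fell in part. Of 10 class II genes 5 fell and none rose, with a median of -0.58. H2-Ob, a chain of the H2-O modulator of peptide loading, ran from 206 to 368 CPM in HPC (median 237) and from 83.5 to 193 CPM in pGM (median 112) and fell with no overlap (-1.11 ± 0.11, adjusted p = 9.1e-07). H2-Eb1 (-1.37 ± 0.30, adjusted p = 0.0024) and the invariant chain Cd74 (-1.3 ± 0.29, adjusted p = 0.0028) fell, with values of -2.16 and -2.06 in the 4-digit pairs and -0.62 and -0.55 in the 2-digit pairs. In a fit of the 2-digit pairs alone neither was called (adjusted p = 0.104 and 0.135), and the difference between the sets was not called for either in the test of it over all genes. Class I genes fell in 8 of 17 and rose in none, by less than 2-fold each, against 16.1% that fell among all genes tested. H2-T22, a nonclassical class I gene, had the largest of these falls (-0.81 ± 0.11), and B2m, the shared light chain, ran from 4575 to 7439 CPM in HPC (median 5403) and from 3213 to 4421 CPM in pGM (median 4104) (-0.49 ± 0.09). In a fit of the 2-digit pairs alone B2m was not called (-0.46, adjusted p = 0.12). In the model of all 16 libraries it was called within those pairs (adjusted p = 0.0407). H2-Q6 (-0.76 ± 0.09) and H2-Q7 (-0.80 ± 0.08) are near-identical copies, so that their counts could be split uncertainly.

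Of 138 hematopoietic transcription factors, 25 rose and 51 fell, against 15.8% and 16.1% of all genes tested. Beside Gata1, Tcf7, Irf8, Cebpa and Gata2 (0.99 ± 0.12), those with the largest separated rises were Zbtb16, the factor PLZF, from a median of 1.08 to 7.86 CPM (2.75 ± 0.32), Lmo4, a LIM adaptor (1.51 ± 0.20), and Zeb2, a zinc finger repressor (1.28 ± 0.11). The largest separated falls beside Hlf and Mecom were Nkx2-3, a homeobox factor (-2.01 ± 0.23), Nfatc2, a calcineurin target (-1.93 ± 0.13), and Hoxa10, a posterior homeobox factor (-1.68 ± 0.13), which ran from 10.7 to 24.9 CPM in HPC (median 16.8) and from 2.61 to 7.83 CPM in pGM (median 5.17). Eya2, a cofactor of homeobox factors (-1.23 ± 0.11), and Meis1, the Hox cofactor (-0.77 ± 0.08), which ran from 479 to 654 CPM in HPC (median 593) and from 304 to 420 CPM in pGM (median 329), fell less. Hoxa9, a homeobox gene of progenitor self-renewal, fell in 8 of 8 pairs with overlap (-0.71 ± 0.11). Of 19 Hoxa and Hoxb genes 6 were tested, and 13 were too low. Kmt2a (0.17 ± 0.14, adjusted p = 0.4) and Mllt1 (0.09 ± 0.12, adjusted p = 0.63), the mouse counterparts of the 2 fused genes, were not called. Without identifier 87 Kmt2a was called, at 0.32 with an adjusted p of 0.0241, and in the 4-digit pairs alone at 0.40 with 0.0406. Of 21 tested genes known as targets of MLL fusions 10 fell and 4 rose, against 16.1% and 15.8% of all genes tested. Bcl2, the survival factor, was among those that rose, from a median of 58.5 to 153 CPM (1.33 ± 0.10, adjusted p = 7.3e-08).

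Ribosome biogenesis genes rose in 21 of 25 and fell in none, with a median of 0.39 and no change of 2-fold. Nolc1, a nucleolar phosphoprotein, ran from 171 to 268 CPM in HPC (median 206) and from 247 to 432 CPM in pGM (median 310) (0.62 ± 0.08, adjusted p = 2.0e-05), and Ddx21, a nucleolar helicase, rose by 0.63 ± 0.10. HPC 88 was the highest HPC library for Nat10 and Bop1, at 125 and 178 CPM. Protein folding genes of the endoplasmic reticulum rose in 18 of 25 (median 0.54), among them the chaperones Calr (1.04 ± 0.10, adjusted p = 1.7e-06) and Hsp90b1 (0.78 ± 0.09, adjusted p = 4.7e-06), and Xbp1, a factor of the unfolded protein response, fell (-0.37 ± 0.12). Of 25 oxidative phosphorylation genes 8 rose, none fell and 17 were not called, with Cox5b at 0.55 ± 0.12 and Atp5b at 0.55 ± 0.14. The share called was near that of all genes tested (31.9%, with 15.8% that rose). In the 4-digit pairs alone Atp5b was not called (adjusted p = 0.0796). Of 19 glycolysis genes 7 rose and 5 fell (median 0.19), against 15.8% and 16.1% of all genes tested. The 2 lactate dehydrogenase subunits moved apart, Ldhb from a median of 253 down to 92.3 CPM (-1.44 ± 0.09, adjusted p = 7.1e-09) and Ldha up (0.53 ± 0.10, adjusted p = 7.2e-04). Of 18 genes of heme synthesis and iron 5 rose, 2 fell and 11 were not called (median 0.21), against 31.9% called among all genes tested. Among those that rose, Tfrc, the transferrin receptor (1.47 ± 0.11), and Alas1, the first enzyme of heme synthesis outside red cells (1.11 ± 0.09), had no overlap between the groups.

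Of 25 mitosis genes 4 rose and 2 fell, with a median of -0.01, and of 30 DNA replication genes 3 rose and none fell, with a median of 0.15. Against 31.9% called among all genes tested, these are 6 of 25, a share near that of all genes, and 3 of 30. Mcm2, a subunit of the replicative helicase, rose by 0.42 ± 0.09, and Nusap1, a spindle protein, fell (-0.48 ± 0.09). In a fit of the 2-digit pairs alone Nusap1 was not called (-0.46, adjusted p = 0.0554). In the model of all 16 libraries it was called within those pairs (adjusted p = 0.0277). Cdk6, a cyclin-dependent kinase of progenitors, ran from 731 to 1235 CPM in HPC (median 902) and from 1191 to 2434 CPM in pGM (median 1731) and rose in 8 of 8 pairs (0.89 ± 0.10, adjusted p = 3.9e-06). Among kinase inhibitors of the cycle, Cdkn1a rose (1.01 ± 0.12, adjusted p = 6.9e-06) and the imprinted Cdkn1c, a brake on stem cell division, fell (-1.84 ± 0.25, adjusted p = 3.4e-05). Igf2r (-2.55 ± 0.16) and Ndn (-2.34 ± 0.27), also imprinted, fell. Of 9 imprinted genes tested 5 fell and 3 rose, against 16.1% and 15.8% of all genes tested. Immediate early genes fell in 7 of 15 and rose in none, against 16.1% that fell among all genes tested. Klf6 was at -0.99 ± 0.10 and Zfp36 at -0.65 ± 0.09. The chemokines Ccl4 (-1.69 ± 0.13, adjusted p = 7.0e-08) and Ccl3 (-1.51 ± 0.14, adjusted p = 1.0e-06) fell in 8 of 8 pairs.

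The 2 sets of identifiers were compared gene by gene. Within the 4 pairs of 2-digit identifiers 2034 genes were called (16.2%), 881 higher (7.02%) and 1153 lower (9.18%) in pGM. Within the 4-digit pairs 2689 were called (21.4%), 1248 higher (9.94%) and 1441 lower (11.5%). Both sets called 1470 genes, which is 72.3% of the first and 54.7% of the second list, and 1469 had the same direction. Of the 4005 genes called over all pairs, 4004 had the same sign in both sets, and so had 1057 of 1057 at 2-fold or more. Since these calls use the pairs of both sets, the like signs are in part set by the choice. Over all 12555 genes tested the signs were the same for 75.4%. Among the lists with the widest gaps between sets, the medians in the 2-digit and 4-digit pairs were 1.73 and 0.33 for monocyte and dendritic genes, 2.11 and 1.22 for B cell genes and -0.16 and -0.89 for class II genes. As a description across genes, which are not independent replicates, the log2 fold changes of the sets correlated at r = 0.79 (Spearman 0.69).

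**Figure D4:**
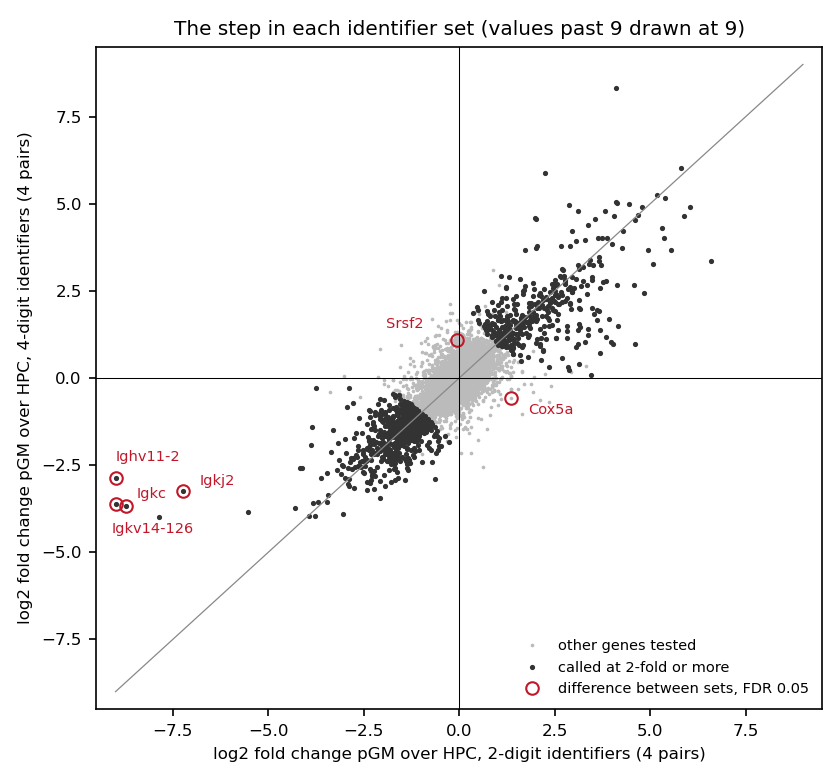
Log2 fold change of pGM over HPC in the 4 pairs with 2-digit identifiers (x axis) against the 4 pairs with 4-digit identifiers (y axis) for 12555 genes, with values past 9 drawn at 9. Genes called at 2-fold or more (black) lie along the diagonal, and the 6 genes past the test of the difference are circled, 4 of them immunoglobulin genes.

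The test of the difference between the sets called 6 genes (0.0478%). Of these, 4 were immunoglobulin segments that fell more in the 2-digit pairs: Igkc with a change of -8.72 against -3.67 (difference 5.05 ± 0.61, adjusted p = 0.0016), Igkv14-126, Ighv11-2 and Igkj2, the last named outside the naming rule. Igkv14-126 ran from 0.0522 to 3703 CPM in HPC and was at 0 in 5 of 8 pGM libraries, so its fitted change depends on the prior count. Srsf2, a splicing factor, which was called over all pairs (0.52 ± 0.17, adjusted p = 0.031), changed by -0.06 in the 2-digit and by 1.09 in the 4-digit pairs (1.15 ± 0.17, adjusted p = 0.019). Cox5a, a subunit of cytochrome c oxidase, changed by 1.36 and -0.57 (-1.93 ± 0.31, adjusted p = 0.04). Neither Srsf2 nor Cox5a was called in that test without 4892 or without 4894 (adjusted p from 0.0957 to 0.144), and Cox5a was also lost without 76, 80, 88 or 5899 and Srsf2 without 80 or 5899. No member of the late neutrophil, monocyte and dendritic, B cell or class II lists was called in this test.

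The same step in newborns (P0) was compared in 1 model, with 4 HPC and 3 pGM control libraries, labelled wild type and without doxycycline, from neonatal liver that share no library with those at 10 weeks. HPC 4 had no pGM library of the same identifier, so in this model, which blocks on the identifier, the P0 step rested on 3 pairs. Age and tissue cannot be told apart there. At P0 1943 of 14275 genes were called (13.6%), 711 higher (4.98%) and 1232 lower (8.63%) in pGM. The step differed between the ages for 501 genes (3.51%), 366 with a higher step (2.56%) and 135 with a lower step (0.946%) at 10 weeks. Without P0 identifier 5 this count was 234, without 3 it was 294, and without 2 it was 559. Of the 1057 genes called at 2-fold or more at 10 weeks, 938 (88.7%) had the same sign at P0, and 135 passed the test of the difference. In 111 of the 135 the difference, 10 weeks minus P0, had the sign of the 10 week change. That count takes in genes of opposite sign at P0, whatever the size of their P0 change. Rab7b is an example, at 2.63 at 10 weeks and -2.7 at P0. These shares describe genes chosen by the 10 week step.

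**Figure D5:**
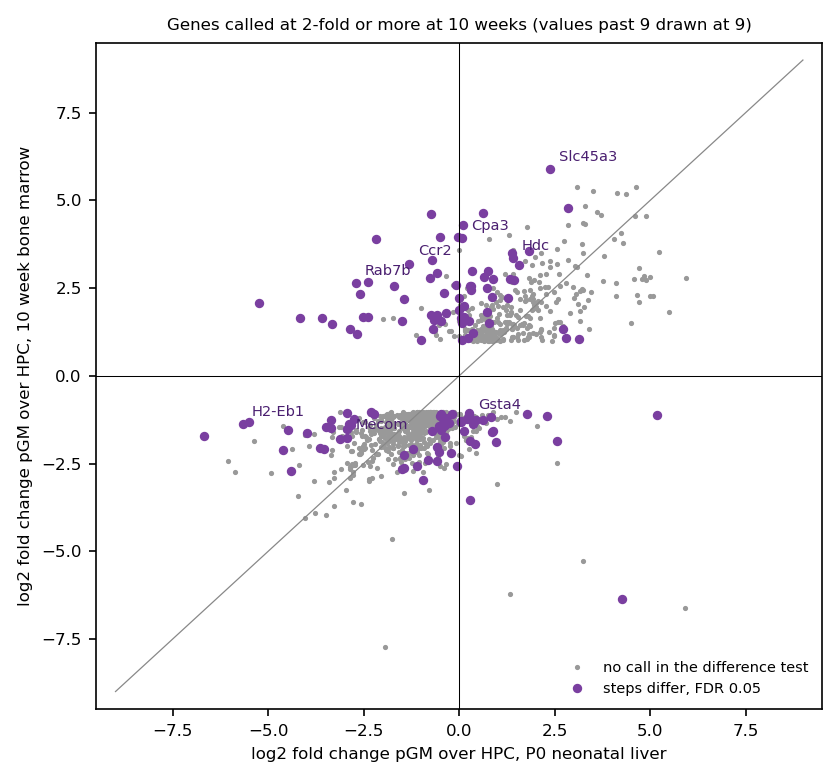
Log2 fold change of pGM over HPC at P0 in neonatal liver (x axis) and at 10 weeks in bone marrow (y axis) for the 1057 genes called at 2-fold or more at 10 weeks, with values past 9 drawn at 9. The 135 genes whose steps differ (purple) include Cpa3, Rab7b and Ccr2, which rise at 10 weeks and lie near or below 0 at P0.

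Cpa3 rose at 10 weeks (3.92 ± 0.13) and was not called at P0 (0.09 ± 0.19; difference 3.84 ± 0.24, adjusted p = 8.7e-08). At P0 it was at 156, 110, 299 and 180 CPM in the 4 P0 HPC libraries and 133, 123 and 223 CPM in the 3 of P0 pGM, and these overlapped, whereas the 10 week groups did not. Rab7b, a late endosome GTPase of myeloid cells, rose at 10 weeks (2.63 ± 0.12) and fell at P0 (-2.7 ± 0.18; 5.33 ± 0.23, adjusted p = 1.3e-09). Of the monocyte and dendritic genes 18 of 30 in this fit differed, all with the higher step at 10 weeks. Ccr2 (4.5), Irf8 (3.54), Csf1r (2.13), Cst3 (3.31) and Id2 (3.73) were among them. The step compares pGM with HPC and is not a level. Mean Cst3 at P0 and 10 weeks was 4494 and 537 CPM in HPC and 715 and 756 CPM in pGM. Ccr2 was at 165 and 6.98 CPM in HPC and 68.8 and 62.8 CPM in pGM. Csf1r was at 140 and 22.4 CPM in HPC and 193 and 124 CPM in pGM. The part of other cell types in P0 HPC was not tested. Irf8 was at 316, 130, 95.5 and 382 CPM in the 4 P0 HPC libraries and 267, 167 and 64 CPM in the 3 of P0 pGM, so that the P0 groups overlapped.

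Class II genes fell more at P0, with a median of -3.55 against -0.61 at 10 weeks, and 8 of 10 differed. Mean Cd74 at P0 and 10 weeks was 12400 and 550 CPM in HPC and 385 and 278 CPM in pGM. H2-Ob and H2-Oa, which did not pass the test of the difference, were lower in HPC at P0. They were at 100 against 255 CPM and 48.7 against 63 CPM. The part of other cell types in P0 HPC was not tested here either. H2-Eb1 changed by -5.66 ± 0.59 at P0 and -1.38 ± 0.32 at 10 weeks (4.28 ± 0.63, adjusted p = 7.1e-04). It was at 1559, 1285, 773 and 1791 CPM in the 4 P0 HPC libraries and 74.6, 15.8 and 22.7 CPM in the 3 of P0 pGM, a separation that the 10 week libraries lacked. Of the stem cell genes 6 of 30 differed. Mecom fell more at P0 (-2.94 ± 0.22; difference 1.17 ± 0.25, adjusted p = 0.013). Primary granule genes had medians of 1.4 at 10 weeks and 1.21 at P0, and 1 of 16 differed. Interferon response genes had medians of -0.83 and -1.06, and 3 of 29 differed. B cell genes had a median of 1.68 at 10 weeks and 4.5 at P0, with 2 of 13 past the test of the difference.

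Of the 10 named genes with a lower step at 10 weeks, 3 are given here. Blvrb, biliverdin reductase B (-2.76), and Nfia, a factor that favours erythroid cells (-1.56), differed in this direction. Blvrb changed by 0.09 ± 0.17 at 10 weeks, where the groups overlapped, and by 2.85 ± 0.31 at P0, where it was at 41, 20.7, 34.5 and 16.1 CPM in the 4 P0 HPC libraries and 118, 244 and 176 CPM in the 3 of P0 pGM. Nfia fell at 10 weeks in 8 of 8 pairs (-0.97 ± 0.09) and rose at P0 (0.59 ± 0.15). Gsta4, a glutathione transferase, fell with no overlap at 10 weeks (-1.2 ± 0.12) and was not called at P0 (0.29 ± 0.19; -1.49 ± 0.23, adjusted p = 0.001).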

How the data were processed

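RNA was measured by sequencing of SMARTer libraries. Reads were aligned with STAR (listed as 3.0.4) and counted per gene with featureCounts 1.4.5 of Subread, per the submitters' processing notes, and the deposited values are raw read counts. The sources used here name no genome build, annotation or strandedness, so overlapping and antisense genes may share reads. Symbols and positions were taken by Ensembl ID from GENCODE vM21 (GRCm38), and 40340 of 41388 genes had one. The 1048 others held 0.155% of counts. Totals of 10.26 to 20.79 M counts limit the precision for low genes.

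Genes were filtered by filterByExpr, scaled by TMM and fitted with edgeR 4.0.16 (R 4.3.3) with the identifier as a block, on the 16 libraries. The differences between identifier sets and between ages were interaction terms, and p-values were adjusted by Benjamini-Hochberg over all genes tested. Scripts were tested on simulated data. Deviations from the group means correlated at 0.21 to 0.42 between libraries of the same identifier in all 8 pairs, and the labels give the shared number. No pair of libraries of 1 group agreed within sampling noise (chi-square per degree of freedom 10.31 to 111.77 over 56 pairs).

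Genes named were the 15 largest rises and falls called with the same direction in 8 of 8 pairs, no overlap and a mean log2 CPM of at least 1, the 8 largest for transcription factors each way, up to 4 members of each other list by smallest p, all sorting antigens, Kmt2a and Mllt1, and up to 10 genes each way for each difference test. Tek, Elane, Lyz2, Prss57, Ctsc, Gstm1, Cd33, Spi1, Csf3r, Csf2ra, Gfi1, S100a8, Siglech, Ly6c1, Ctss, Prss34, Prg2, Cma1, Ear1, Hba-a1, Hba-a2, Hbb-bs, Hbb-bt, Itgb3, Treml1, Gfi1b, Pf4, Vwf, Dntt, Mzb1, Isg15, Stat2, Mx1, Mx2, Ifitm2, Bst2, Gbp3, Gbp7, Gimap9, Xbp1 and Igkj2 fall outside the rule and were chosen after their values were seen, as were the promoters printed. Some genes that the rule names are not reported here. The comparison and the lists were chosen with earlier results of these data known. Alternatives were RLE scaling, no filter, DESeq2 1.42.0, no block, added GMP libraries, each identifier set alone and each identifier left out.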

Additional observations from a re-analysis of the deposited data

Results flagged for a closer look

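Single libraries stood apart from the other 7 of their population in 20 of 352 groups examined, by a gap to the next library that was large against the whole range. Chance flags about 1 in 20 groups. HPC 88 was highest for Igkc at 17000 CPM, Ighm at 17900 CPM, Jchain at 4260 CPM, Nat10 at 125 CPM, Bop1 at 178 CPM and Uqcrc1 at 1240 CPM. HPC 80 was highest for Fcgr3 at 22.3 CPM and HPC 76 for Btg2 at 163 CPM. Among pGM libraries, 76 was highest for Btg2 at 149 CPM, Mfng at 266 CPM and Il7r at 30.9 CPM, 80 for Prr5l at 2.0 CPM and H2-Q7 at 82.0 CPM, and 87 for Flt3 at 442 CPM. Library 5898 of pGM was highest for Cdkn1c at 2.43 CPM, Ndn at 3.28 CPM, Cox5b at 100 CPM and Postn at 0.899 CPM. Library 4894 of pGM was lowest for Gata1 at 56.0 CPM and highest for Vldlr at 33.1 CPM.

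The step differed between the identifier sets for 5 named genes, by the test of the difference (4-digit minus 2-digit, log2). Igkv14-126 differed by 13.87, Ighv11-2 by 11.32, Igkc by 5.05, Srsf2 by 1.15 and Cox5a by -1.93.

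The step differed between 10 weeks and P0 for 20 named genes, by the same kind of test (10 weeks minus P0, log2). Ifi205 differed by 8.97, Rab7b by 5.33, Naaa by 5.25, Ppfia4 by 4.26, Cpa3 by 3.84, Id2 by 3.73, Nrp1 by 3.51, Cst3 by 3.31, Fgl2 by 2.82 and H2-DMb1 by 2.73. Igsf3 differed by -2.82, Blvrb by -2.76, Clstn1 by -2.19, Tmprss3 by -2.19, Asns by -1.97, Crip2 by -1.93, Hebp1 by -1.73, Nfia by -1.56, Gsta4 by -1.49 and Muc13 by -1.28. Age and tissue cannot be told apart in these.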

How the results depend on the processing

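In the step, 4005 calls became 2542 with no replicate block and no set term, 1619 with the 2-digit identifiers only (38.8% of them higher in pGM, against 49.6%) and 2633 without identifiers 4892 and 4894, and ranged from 3315 to 4097 when each identifier was left out. The paired fit was the main one, and with no replicate block 2918 genes were called, 2896 of them among the 4005. The 1057 calls at 2-fold or more became 1652 with no filter on low counts, and ranged from 1027 to 1068 with each identifier left out. Of the 6 differences between identifier sets, edgeR without the replicate block called 0, with 313 genes at an unadjusted p under 0.05. DESeq2 called 44 and edgeR with no filter 192. Leaving out each identifier gave 4 to 11, the highest without 5898. The 501 differences between ages became 315 with only the 2-digit and 318 with only the 4-digit identifiers, and 234 to 559 with each identifier left out. The cause of these changes was not tested. Kmt2a, Eng and Xist, named but not called, changed sign under some alternatives (Kmt2a from 0.17 to -0.08 with the 2-digit identifiers only). Il7r, also named but not called, was too near 0 over all pairs (-0.0013) for its sign to be followed. In the model with a step for each identifier set it was at 0.26 in the 2-digit and -0.25 in the 4-digit pairs. No gene named for the step and called in it changed sign in the alternatives. These were run for the 177 genes named for the step. They were not run for the genes outside the naming rule or for those named only by a difference test. Srsf2 is one of the latter, called in the step and at -0.06 in the 2-digit pairs. With the 2-digit identifiers only 28 named genes lost their call, and with the 4-digit identifiers only 9 did. For genes near 0 CPM the fitted change depends on the prior count.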
